A study of Peromyscus maniculatus with 16 samples.

Results

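The genes described here encode the proteins that start, restrain and carry out programmed cell death, together with a few stress genes that lie upstream of it. Members were taken by symbol from a list of 46 apoptosis and cell death genes, and 37 of them had a row among the 16910 genes of the count table. Of these 37, 36 passed the filter on low counts and were tested beside 12639 genes in all. The remaining 9 symbols (Bik, Mcl1, Cycs, Diablo, Casp6, Tnfrsf10b, Gsdmd, Trp53 and Mdm2) were not analysed here.

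RNA was sequenced from the livers of 16 outbred deer mice (Peromyscus maniculatus), each animal being a separate biological replicate. Chow was fed to 6 control animals (group C), and 10 animals were kept for 28 weeks on an HFD, a diet rich in fat (58 kcal%) and sucrose. On histology 5 of the animals on HFD had no steatosis (group NS) and 5 had steatosis (group S). Diets began at 3 to 4 months of age, and the animals were 10 months old at the end. No animal carried an engineered allele. There were 13 animals of the BW stock (P. maniculatus bairdii) and 3 of the SM2 stock (P. maniculatus sonoriensis), with 1 SM2 animal in each group, namely 10876 in C, 10865 in NS and 10880 in S. Females were 35982, 35955 and 35990, all in S, and every other animal was male, so sex and steatosis cannot be fully told apart. Animals are named by their own numbers.

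Cells die by apoptosis along a pair of routes that meet at the caspases, proteases that take the cell apart. In the mitochondrial route, BH3-only proteins release the pore formers BAX and BAK from the BCL-2 survival proteins, and factors leaking from the mitochondrion build the apoptosome. In the receptor route, ligands such as TNF and FasL act through death receptors and their adaptors, and hepatocytes need the mitochondrial amplification of that signal. Death of fat-laden hepatocytes is a known feature of progressing fatty liver disease, and necroptosis, a lytic death run by RIPK3 and MLKL, serves as an alternative when caspase 8 is blocked.

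Total counts ranged from 6374518 to 11349971 in C, from 7336900 to 9362184 in NS and from 4640733 to 10892425 in S. Levels are given as TMM-normalized CPM, counts relative to library size after a scaling that corrects for differences in composition. The hepatocyte markers (7 of 10 in the table, Apoa1 the most abundant, none at 0) summed to 32700 to 70400 CPM. Since CPM is not divided by transcript length, levels are compared between animals and not between genes. S animals 36016 and 35990 stood apart from the other livers. In 36016, the library with the lowest total, the stellate cell and fibroblast markers (10 of 10 in the table, Dcn the most abundant on average) summed to 3470 CPM, against 213 to 549 in the other 15 livers. Col1a1, a fibrillar collagen gene, had 2060 CPM there and at most 17.0 elsewhere. The cycling cell markers (8 of 10 in the table, Top2a the most abundant) summed to 59.1 CPM in 36016 and 38.6 in 35990, and to 2.52 to 7.93 in the other 14 livers. In 35990 the macrophage markers (10 of 12 in the table, Marco the most abundant) reached 1180 CPM, above the 207 to 656 of the others. No marker of these 3 lists that had a row was at 0 in every animal. In bulk liver, fewer cells of a type and less RNA per cell cannot be told apart, which holds for every gene described here.

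**Figure D1:**
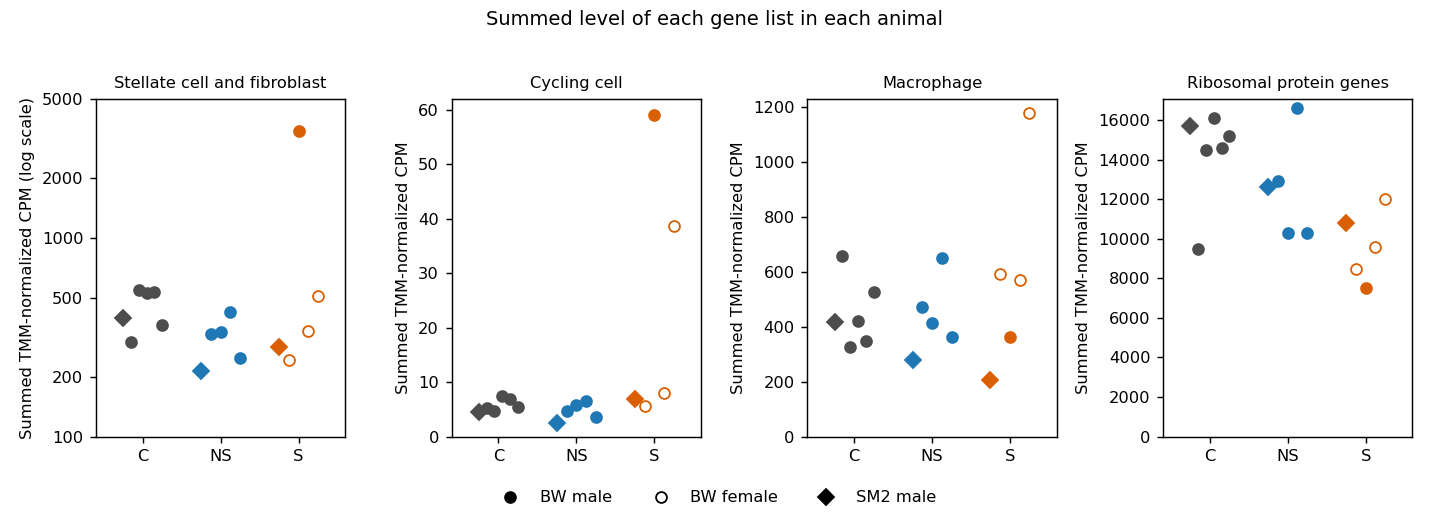
Summed TMM-normalized CPM of the stellate cell and fibroblast, cycling cell, macrophage and ribosomal protein genes in each animal, by group, with the stellate panel on a log scale. Diamonds are SM2 males and open circles BW females. Animal 36016 lies alone at 3470 CPM for the stellate list, and the ribosomal protein genes of S reach at most 12000 CPM.

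In S vs C, 3 of the 36 members passed an adjusted p under 0.1 in edgeR's quasi-likelihood test, and 10.8% of all 12639 genes did (1359 genes, 681 of them higher). The growth arrest gene Gadd45a and the BH3-only gene Bbc3 were higher in S, and the mitochondrial nuclease gene Endog was lower. With a fold change of at least 2 required as well, 2 members remained (Gadd45a and Bbc3), beside 4.06% of all genes. At an unadjusted p under 0.05 there were 8 members, 7 of them higher, beside 23.8% of all genes (1653 of 3011 higher). The members' share was thus near the background in S vs C, and it is not a result about the family. Their median log2 fold change was 0.22, beside 0.10 for all genes tested.

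In NS vs C, 0 of 36 members passed at adjusted p under 0.1, as did 0.0791% of all genes, and 0 passed with a fold of at least 2, as did 0.0712%. DESeq2 also called 0 members, beside 0.902% of all genes. At an unadjusted p under 0.05 there were 8 members (Bbc3, Htra2, Casp8, Casp9, Fadd, Tnfrsf1a, Mlkl and Gadd45a), beside 8.29% of all genes. All 8 were higher in NS, where 5.32% of all genes had such a p and were higher. The median log2 fold change was 0.26 for the members and 0.01 for all genes. None of the 8 passed the adjustment over all genes, and S vs C and NS vs C share the same 6 control animals.

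In S vs NS, 0 of 36 members passed at adjusted p under 0.1, beside 0.00791% of all genes (1 gene), which also passed with the fold of at least 2 (0.00791%). DESeq2 called 0 members, beside 0.942% of all genes. With sex in the fit 0 members were called, beside 1.69% of all genes, and in the male animals alone 0, beside 1.32%. At an unadjusted p under 0.05 there were 2 members, Tnfrsf1a and Endog, both lower in S, beside 10.9% of all genes. The median log2 fold change of the members was -0.00, beside 0.04 for all genes.

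**Figure D2:**
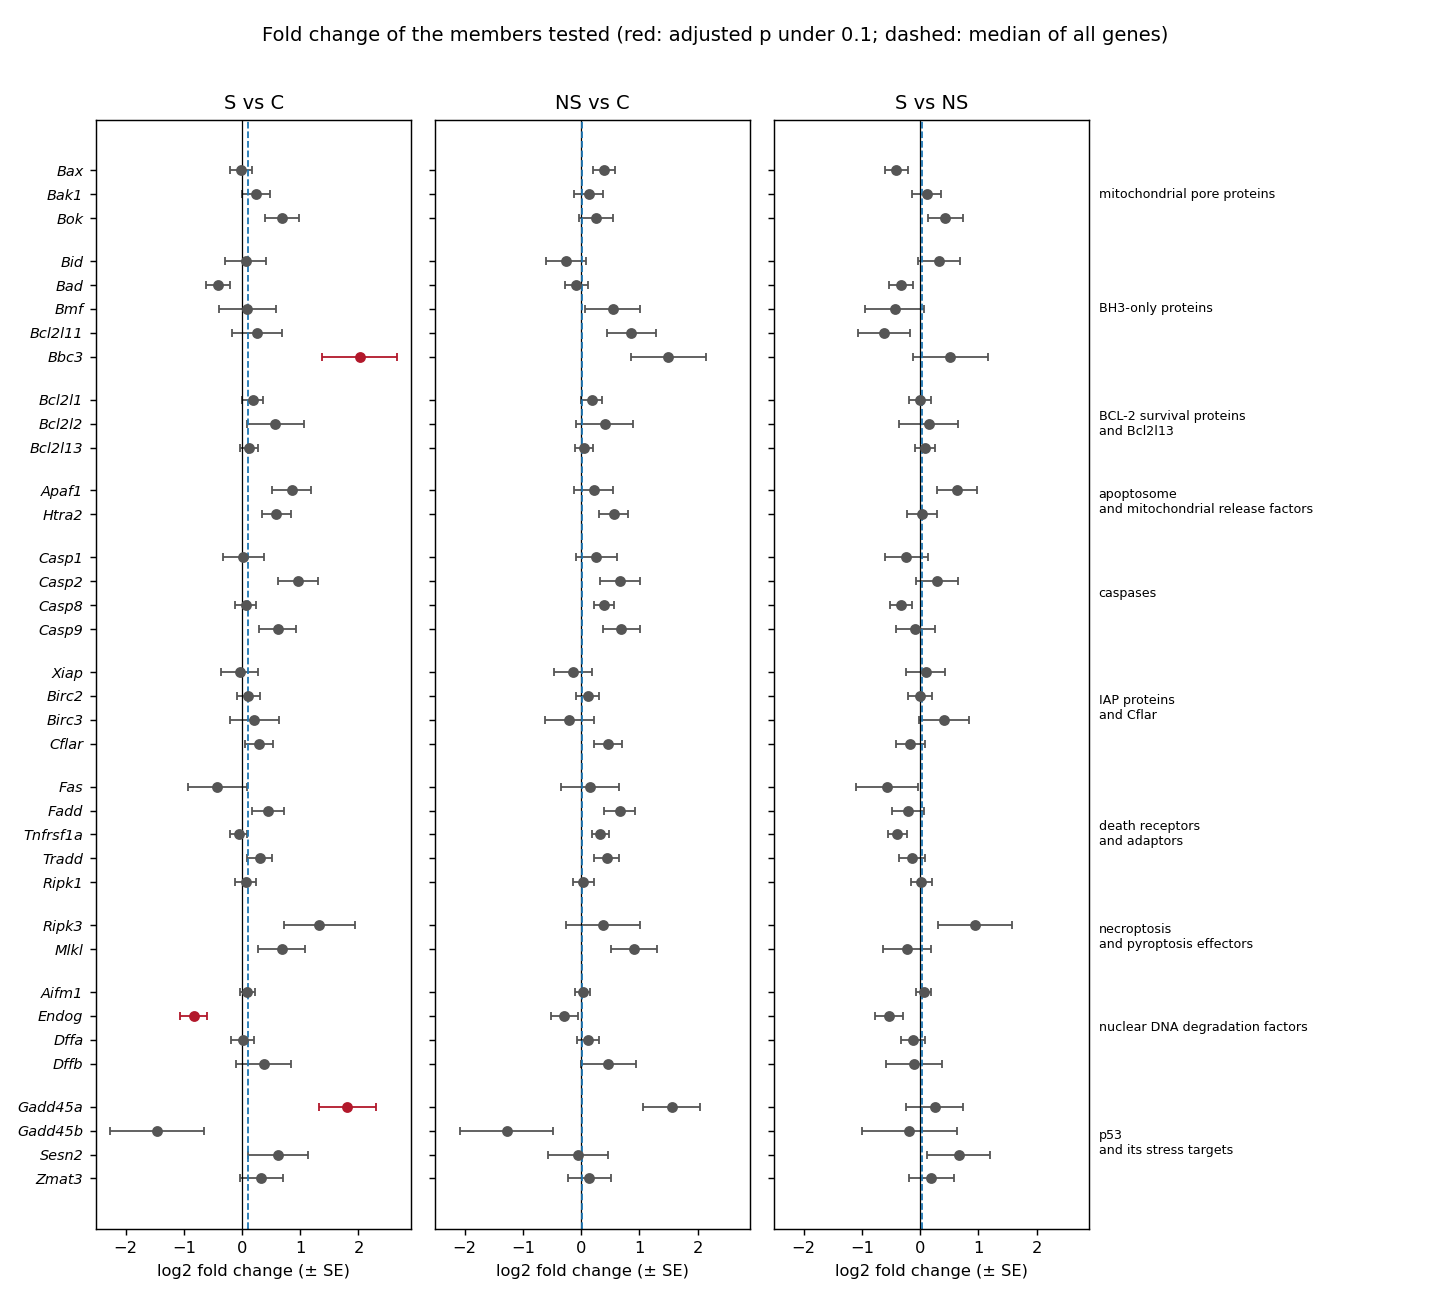
Log2 fold change with its standard error for the 36 members tested, grouped by role, in the 3 comparisons. Red points passed an adjusted p under 0.1, and the dashed line is the median of all genes tested. The 3 red points in S vs C are Bbc3 (2.02), Endog (-0.83) and Gadd45a (1.81).

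Scaling and single animals moved these counts. With library totals in place of TMM, the median of all genes in S vs C moved from 0.10 to 0.33 and that of the members from 0.22 to 0.44. On that scale 7 members were called, all 7 higher, and 1998 of the 2286 genes called were higher. Endog was not called on that scale (log2 fold change -0.58, adjusted p of 0.102). Without S animals 36016 and 35990, an alternative chosen after seeing the data, 315 of 12287 genes were called in S vs C (2.56%), and of the members only Endog (log2 fold change -0.99 ± 0.261 SE, adjusted p of 0.0875). In that fit Gadd45a had a log2 fold change of 1.75 ± 0.52 SE and Bbc3 of 2.38 ± 0.709 SE, each with an adjusted p of 0.112. Leaving out C animal 35975 alone ended all 3 calls, and 456 genes were then called in all. Without 36016 alone 602 genes and 1 member (Bbc3) were called, and without C animal 36001 or 36007 or S animal 35982 there were 567, 446 and 774 genes. In the male animals alone, with 2 S animals left, Gadd45a, Bbc3 and Endog were called among 990 genes.

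Among the mitochondrial pore proteins, 3 of 3 members were tested and 0 were called in any comparison. Bax, a pore former of the outer mitochondrial membrane, lay at 31.9, 46.7 and 59.9 CPM (lowest, median and highest) in C. In NS it was 79.5 in 10865, 68.0 in 35963, 41.2 in 35987, 58.8 in 35930 and 51.4 in 35937, and in S it was 55.1 in 10880, 38.9 in 35982, 40.0 in 36016, 41.7 in 35955 and 49.1 in 35990. All 3 ranges overlapped, with 2 NS animals above every C animal and 2 S animals below every NS animal. NS differed from C by 0.39 ± 0.19 SE on the log2 scale (adjusted p of 0.614), S from NS by -0.41 ± 0.199 SE (0.465) and S from C by -0.02 ± 0.191 SE (0.961), none of which passed.

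Bok, a less studied relative of BAX, had 1.53, 2.50 and 2.94 CPM (lowest, median and highest) in C. Its S values were 4.75 in 10880, 3.89 in 35982, 3.94 in 36016, 2.18 in 35955 and 4.20 in 35990, and its NS values 3.53, 2.04, 3.16, 3.52 and 1.76 in 10865, 35963, 35987, 35930 and 35937. In S, 4 of 5 animals were above every C animal, and 35955 was within the C range. The difference in S vs C, 0.69 ± 0.288 SE on the log2 scale, did not pass (adjusted p of 0.162), though it did with library totals (0.0634 to 0.36 over 28 alternatives). Bak1, the other main pore former, ranged from 2.95 to 9.24 CPM over all animals.

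The BH3-only proteins sense damage or stress and inhibit the survival proteins, and 5 of 6 had a row. Bbc3, which encodes PUMA and is a p53 target, had 0.222, 1.19 and 2.26 CPM (lowest, median and highest) in C, its highest value being in the SM2 animal 10876. In NS it was 6.43 in 10865, 5.10 in 35963, 2.57 in 35987, 1.82 in 35930 and 1.49 in 35937, and in S it was 14.6 in 10880, 3.89 in 35982, 2.25 in 36016, 0.785 in 35955 and 3.43 in 35990. In each HFD group 3 of 5 animals were above every C animal and the ranges overlapped, and in all 3 groups the SM2 animal was the highest. Bbc3 rose by 2.02 ± 0.639 SE on the log2 scale in S vs C (adjusted p of 0.0772), while NS differed from C by 1.5 ± 0.639 SE (0.592) and S from NS by 0.52 ± 0.639 SE (0.791), neither of which passed.

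Bbc3 was a low-count gene, with 2 to 120 counts per animal. Leaving out the SM2 animal 10880 lowered its log2 fold change in S vs C to 1.06 (adjusted p of 0.254), and the BW animals alone gave 1.35 (0.145). The call was also lost without S animal 35982 (adjusted p of 0.104) and without C animals 35972 (0.106), 35975 (0.145), 36001 (0.137) or 36007 (0.143), with log2 fold changes of 1.8 to 2.1. A fit of only the groups compared lost the call for Bbc3 as well (log2 fold change 2.03, adjusted p of 0.102). Over all 28 alternatives its adjusted p ranged from 0.0236 to 0.254.

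The other BH3-only genes were not called. Bad, whose protein is held inactive by survival signalling, had a mean of 35.0 ± 6.5 CPM (SD, n = 6) in C, 33.1 ± 9.75 (SD, n = 5) in NS and 26.1 ± 5.76 (SD, n = 5) in S. Bcl2l11, which encodes BIM, had 2 to 24 counts per animal and a log2 fold change of 0.86 ± 0.423 SE in NS vs C (adjusted p of 0.614). Bmf varied from 4.13 to 26.7 CPM, and Bid, which links the receptor route to mitochondria, from 1.88 to 6.96 CPM, each with overlapping groups.

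Of the BCL-2 survival proteins, Bcl2 itself was at the floor, with 0 to 3 counts in every animal, so that it failed the filter and no ratio of Bax to Bcl2 could be given. In its place, an addition made after seeing the data, the ratio of Bax to Bcl2l1 counts was taken in each animal; Bcl2l1 encodes BCL-XL, a main survival protein of hepatocytes. The ratio was 1.52, 2.55 and 2.97 (lowest, median and highest) in C. It was 3.06 in 10865, 4.13 in 35963, 1.46 in 35987, 3.23 in 35930 and 2.33 in 35937 in NS, and 2.95 in 10880, 2.02 in 35982, 1.23 in 36016, 1.87 in 35955 and 2.67 in 35990 in S. Ranges overlapped, although 3 NS animals lay above all animals of C and S. Bcl2l1 alone had 16.4 to 32.5 CPM, its highest value in 36016. Bcl2l2, another survival gene, and Bcl2l13, a mitochondrial relative, ranged from 0.271 to 2.67 and from 27.8 to 53.3 CPM with 0 calls.

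**Figure D3:**
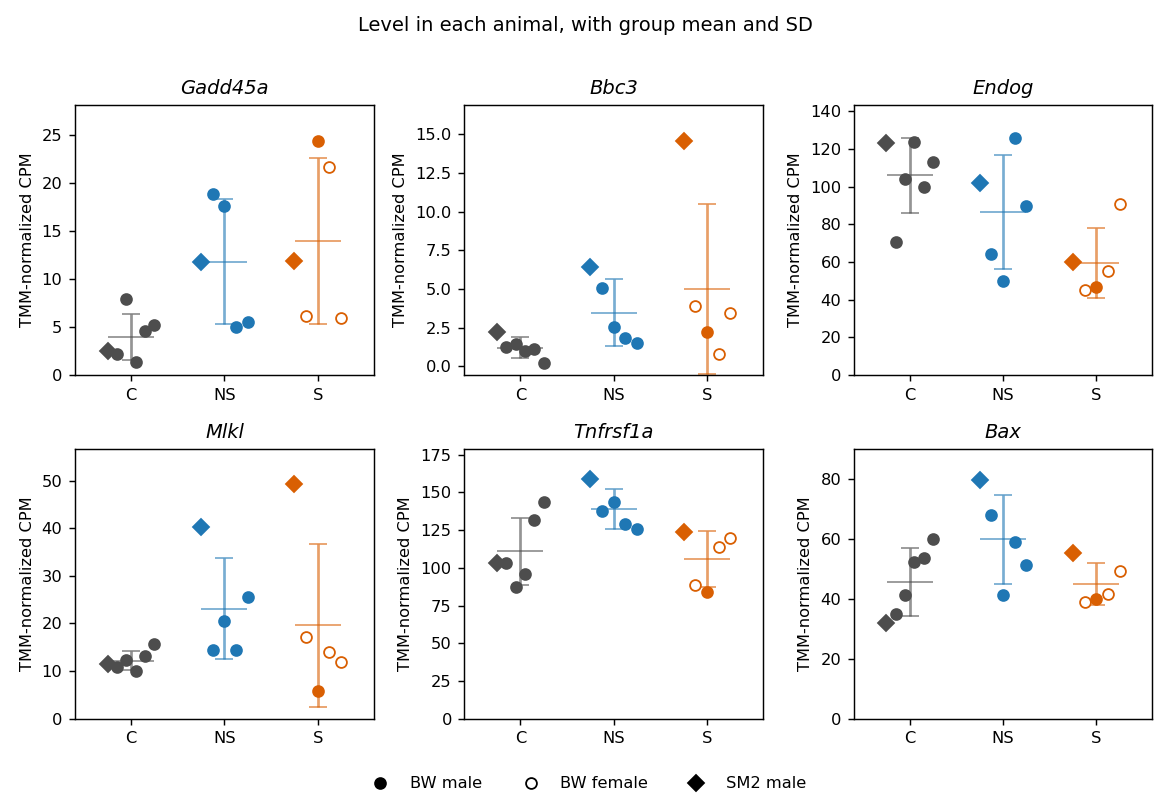
TMM-normalized CPM of Gadd45a, Bbc3, Endog, Mlkl, Tnfrsf1a and Bax in each animal by group, with the group mean and SD. Diamonds are SM2 males and open circles BW females. The SM2 animals 10865 and 10880 have 40.2 and 49.2 CPM for Mlkl, above every other animal.

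Only 2 of the 4 apoptosome and mitochondrial release factors had a row, Apaf1 and Htra2, and neither was called. Apaf1, the scaffold of the apoptosome, had 1.33, 2.14 and 3.32 CPM (lowest, median and highest) in C. It was 1.64 in 10865, 2.04 in 35963, 4.34 in 35987, 2.30 in 35930 and 2.85 in 35937 in NS, and 2.31 in 10880, 4.82 in 35982, 5.82 in 36016, 3.75 in 35955 and 3.91 in 35990 in S. The 4 BW animals of S were above every C animal, and the SM2 animal 10880 was within the C range. S differed from C by 0.85 ± 0.332 SE on the log2 scale (adjusted p of 0.136), and DESeq2, a stock term, library totals, the BW animals alone and leaving out 10880 each put Apaf1 past the threshold (0.0701 to 0.371 over 28 alternatives).

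Htra2, a mitochondrial protease that can displace caspase inhibitors, had 15.5, 22.6 and 28.8 CPM (lowest, median and highest) in C. It was 44.9 in 10865, 29.3 in 35963, 18.0 in 35987, 27.6 in 35930 and 38.9 in 35937 in NS, and 42.4 in 10880, 39.3 in 35982, 17.3 in 36016, 31.8 in 35955 and 31.4 in 35990 in S. All but 36016 in S, and 3 NS animals, exceeded the highest C animal. Log2 fold changes were 0.59 ± 0.249 SE in S vs C (adjusted p of 0.163) and 0.56 ± 0.248 SE in NS vs C (0.594). In S vs C a stock term and library totals each put Htra2 past the threshold (0.0503 to 0.459 over 28 alternatives).

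The 4 caspase genes tested, of 5 listed, gave 0 calls. Casp2, an initiator caspase linked to DNA damage and lipid-induced death, came nearest, with 0.759, 1.5 and 2.81 CPM (lowest, median and highest) in C. Its values were 4.02 in 10880, 2.41 in 35982, 2.44 in 36016, 2.44 in 35955 and 3.43 in 35990 in S, and 3.15 in 10865, 2.17 in 35963, 2.47 in 35987, 1.46 in 35930 and 2.85 in 35937 in NS. S lay above 5 of the 6 C animals throughout, the exception being 35998. The log2 fold change of 0.96 ± 0.343 SE in S vs C had an adjusted p of 0.109, and DESeq2, a stock term in the fit, a stricter filter, library totals and leaving out 35998 each put it past the threshold (0.0482 to 0.217 over 28 alternatives).

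Casp9, the caspase of the apoptosome, had 1.18, 2.76 and 4.10 CPM (lowest, median and highest) in C, 2.52, 3.83, 5.13, 4.73 and 5.83 in NS animals 10865, 35963, 35987, 35930 and 35937, and 3.90, 4.45, 2.44, 4.88 and 5.05 in S animals 10880, 35982, 36016, 35955 and 35990. In each HFD group 3 of 5 animals exceeded every C animal. Its log2 fold change was 0.69 ± 0.316 SE in NS vs C (adjusted p of 0.594) and 0.61 ± 0.317 SE in S vs C (0.249). In S vs C library totals put Casp9 past the threshold, where 18.1% of all genes were called.

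Casp8, the initiator of the receptor route, had 7.49, 9.5 and 13.1 CPM (lowest, median and highest) in C. It was 13.4 in 10865, 11.3 in 35963, 15 in 35987, 9.58 in 35930 and 15.2 in 35937 in NS, and 9.5 in 10880, 9.27 in 35982, 10.7 in 36016, 10.6 in 35955 and 11.2 in 35990 in S. NS animals 10865, 35987 and 35937 exceeded all C and S animals, and the ranges overlapped. Its difference on the log2 scale was 0.39 ± 0.174 SE in NS vs C (adjusted p of 0.594) and 0.06 ± 0.176 SE in S vs C (0.869). Casp1, the caspase of inflammasomes, ranged from 2.80 CPM in 10880, lowest for the macrophage markers (207 CPM), to 11.9 in 35990, highest for them. By contrast, 10865 had 9.71 CPM of Casp1 with a macrophage sum of 277 CPM, and 35998 had 5.47 with a sum of 656. The part of macrophages was not tested.

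Of the IAP proteins and Cflar, which hold caspases in check, 4 of 4 were tested and 0 called. Xiap, the direct caspase inhibitor, ranged from 9.71 to 28.9 CPM. In NS, 10865 had the highest Bax and the lowest Xiap (9.71 CPM), and 35987 the lowest Bax and the highest Xiap (27.8 CPM). In C, 35998 had the highest Xiap (28.9 CPM) and the second lowest Bax (35.0 CPM). This pairing was noticed after the values were seen and was not tested. Birc2 and Birc3, which act in TNF signalling, ranged from 9.95 to 21.2 and from 3.46 to 15.6 CPM. Cflar, which encodes the caspase 8 inhibitor FLIP, had a mean of 16.4 ± 3.38 CPM (SD, n = 6) in C, 22.5 ± 8.47 (SD, n = 5) in NS and 14.3 to 27.2 CPM over the 5 animals of S.

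Among the death receptors and adaptors, 5 of 6 were tested and 0 called. Tnfrsf1a, the main TNF receptor of hepatocytes, had 87.5, 103 and 144 CPM (lowest, median and highest) in C. It was 159 in 10865, 138 in 35963, 144 in 35987, 129 in 35930 and 126 in 35937 in NS, and 124 in 10880, 88.8 in 35982, 83.7 in 36016, 114 in 35955 and 120 in 35990 in S. NS and S did not overlap for Tnfrsf1a, every S animal being below the lowest NS animal, 35937. S differed from NS by -0.39 ± 0.158 SE on the log2 scale (adjusted p of 0.405), and the log2 fold change was 0.33 ± 0.151 SE in NS vs C (0.594); neither passed.

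Fadd, the adaptor that recruits caspase 8, had 1.33, 2.14 and 3.13 CPM (lowest, median and highest) in C. It was 3.15 in 10865, 3.32 in 35963, 4.44 in 35987, 3.03 in 35930 and 3.39 in 35937 in NS, and 4.26 in 10880, 2.22 in 35982, 2.63 in 36016, 2.96 in 35955 and 2.86 in 35990 in S. In NS 4 of 5 animals exceeded every C animal, and 35930 lay just within the C range. The log2 fold change of 0.66 ± 0.27 SE in NS vs C did not pass (adjusted p of 0.579).

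Tradd, the adaptor of TNF receptor 1, had 8.54, 10.6 and 15 CPM (lowest, median and highest) in C. It was 21.6 in 10865, 14.2 in 35963, 13.3 in 35987, 11.4 in 35930 and 14.2 in 35937 in NS, and 19.0 in 10880, 13.9 in 35982, 8.63 in 36016, 11.8 in 35955 and 14.4 in 35990 in S. The highest animal of each HFD group was its SM2 animal, and the other HFD animals lay within the C range. NS differed from C by 0.44 ± 0.212 SE on the log2 scale (adjusted p of 0.598). Fas, the receptor of FasL, ranged from 0.543 to 5.80 CPM, and Ripk1, a kinase at the branch between survival and death, from 6.80 to 14.9 CPM.

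Necroptosis was represented by Ripk3 and Mlkl, and neither was called. Mlkl, whose protein breaks the plasma membrane, had 9.99, 11.9 and 15.6 CPM (lowest, median and highest) in C. It was 40.2 in 10865, 14.5 in 35963, 20.6 in 35987, 14.4 in 35930 and 25.5 in 35937 in NS, and 49.2 in 10880, 17.2 in 35982, 5.82 in 36016, 13.9 in 35955 and 11.8 in 35990 in S. Both SM2 animals on HFD were above every other animal, while the SM2 control 10876 (11.4 CPM) was within the range of the BW controls. Neither NS (0.91 ± 0.4 SE on the log2 scale, adjusted p of 0.594) nor S (0.68 ± 0.401 SE, 0.309) passed against C.

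Ripk3, the kinase that activates MLKL, is scarce in hepatocytes and had 0 to 15 counts per animal. It reached 1.22 CPM in 10880 and 1.43 in 35990, with 0.556 in 35982, 0.188 in 36016 and 0.610 in 35955, against 0, 0.359 and 0.492 CPM (lowest, median and highest) in C and 0.504, 0.638, 0.197, 0.485 and 0.271 in NS animals 10865, 35963, 35987, 35930 and 35937. The high value of 35990 stood beside its high macrophage markers (1180 CPM), whereas 10880 had the lowest macrophage sum of all animals (207 CPM). The part of macrophages was not tested. S differed from C by 1.33 ± 0.615 SE on the log2 scale (adjusted p of 0.2), and at these counts counting error is large. With no C animal at 0.5 CPM, Ripk3 passed the filter only through animals on HFD. It therefore adds no support to the count of members at an unadjusted p under 0.05 in S vs C.

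Of the nuclear DNA degradation factors, 4 of 4 were tested and Endog was called. Endog encodes endonuclease G, a mitochondrial nuclease that can move to the nucleus and cut DNA. It had 70.8, 109 and 124 CPM (lowest, median and highest) in C, 102 in 10865, 64.1 in 35963, 50.1 in 35987, 126 in 35930 and 89.8 in 35937 in NS, and 60.2 in 10880, 45.0 in 35982, 46.7 in 36016, 55.4 in 35955 and 90.7 in 35990 in S. In S 4 of 5 animals were below every C animal, 35990 being the exception, and in NS 2 of 5 were. Endog fell by 0.83 ± 0.235 SE on the log2 scale in S vs C (adjusted p of 0.0568), and the log2 fold change was -0.29 ± 0.232 SE in NS vs C (0.772) and -0.53 ± 0.243 SE in S vs NS (0.439). The call was lost without S animals 35982 (adjusted p of 0.116) or 36016 (0.12) and without C animals 35975 (0.119) or 36007 (0.112), with log2 fold changes of -0.81 to -0.74, and with library totals (-0.58, 0.102). Its adjusted p ranged from 0.0164 to 0.12 over 28 alternatives.

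The ribosomal protein genes, 38 genes found by symbol after seeing the data, moved beside Endog. Their summed CPM was 9490, 14900 and 16100 (lowest, median and highest) in C, 12600, 12900, 10300, 16600 and 10300 in NS animals 10865, 35963, 35987, 35930 and 35937, and 10800, 8460, 7490, 9600 and 12000 in S animals 10880, 35982, 36016, 35955 and 35990. The lowest C animal in both measures was 35998, the highest NS animal 35930 and the highest S animal 35990. In S vs C 16 of the 37 ribosomal protein genes tested were called, all lower, beside 10.8% of all genes called and 678 of 12639 called lower, with a median log2 fold change of -0.60. Their part in the fall of Endog was not tested. Aifm1, which encodes the flavoprotein AIF, had a mean of 204 CPM over all animals. It had 199 ± 5.78 CPM (SD, n = 6) in C and ranged from 142 in 35990 to 246 in 35982 in S. Dffa and Dffb, the inhibitor and the nuclease of the DNA fragmentation factor, ranged from 12.0 to 27.7 and from 1.44 to 9.58 CPM.

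Among p53 and its stress targets, 4 of 6 were tested. Gadd45a, a stress gene that acts in growth arrest and DNA repair, had 1.39, 3.56 and 7.95 CPM (lowest, median and highest) in C. It was 11.8 in 10865, 18.9 in 35963, 17.6 in 35987, 4.97 in 35930 and 5.56 in 35937 in NS, and 11.9 in 10880, 6.12 in 35982, 24.4 in 36016, 21.7 in 35955 and 5.91 in 35990 in S. In each HFD group 3 of 5 animals were above every C animal and the other 2 lay within the C range. Gadd45a rose by 1.81 ± 0.491 SE on the log2 scale in S vs C (adjusted p of 0.0497), and its log2 fold change was 1.56 ± 0.489 SE in NS vs C (0.433) and 0.25 ± 0.495 SE in S vs NS (0.889). The call was lost without S animal 36016 (log2 fold change 1.53, adjusted p of 0.114) or C animal 35975 (1.64, 0.108) and without S animals 36016 and 35990 together (1.75, 0.112), and its adjusted p ranged from 0.00689 to 0.114 over 28 alternatives. In 36016 the highest Gadd45a stood beside the high fibroblast and cycling markers. By contrast, 35990, also high for the cycling markers (38.6 CPM), had the lowest Gadd45a of S. In 35955, with 21.7 CPM of Gadd45a, the stellate cell and fibroblast markers summed to 340 CPM and the cycling markers to 7.93. The part of these cell types was not tested.

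Gadd45b, a relative induced by TNF and by many acute stimuli, was the most variable member, and its values are given because of that, a choice made after they were seen. It had 24.4, 113 and 196 CPM (lowest, median and highest) in C, 14.0 in 10865, 7.14 in 35963, 11.6 in 35987, 112 in 35930 and 74.2 in 35937 in NS, and 27.0 in 10880, 6.67 in 35982, 61.6 in 36016, 9.42 in 35955 and 87.4 in 35990 in S. In NS the 3 animals high for Gadd45a were those low for Gadd45b, whereas in S 36016, the highest for Gadd45a, had 61.6 CPM of Gadd45b, and 35982, low for Gadd45a, had the lowest Gadd45b. Its log2 fold change of -1.46 ± 0.804 SE in S vs C did not pass (adjusted p of 0.273). Sesn2, a stress gene that restrains mTORC1, ranged from 11.6 to 78.8 CPM, and Zmat3, an RNA-binding p53 target, from 1.11 to 4.51 CPM.

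**Figure D4:**
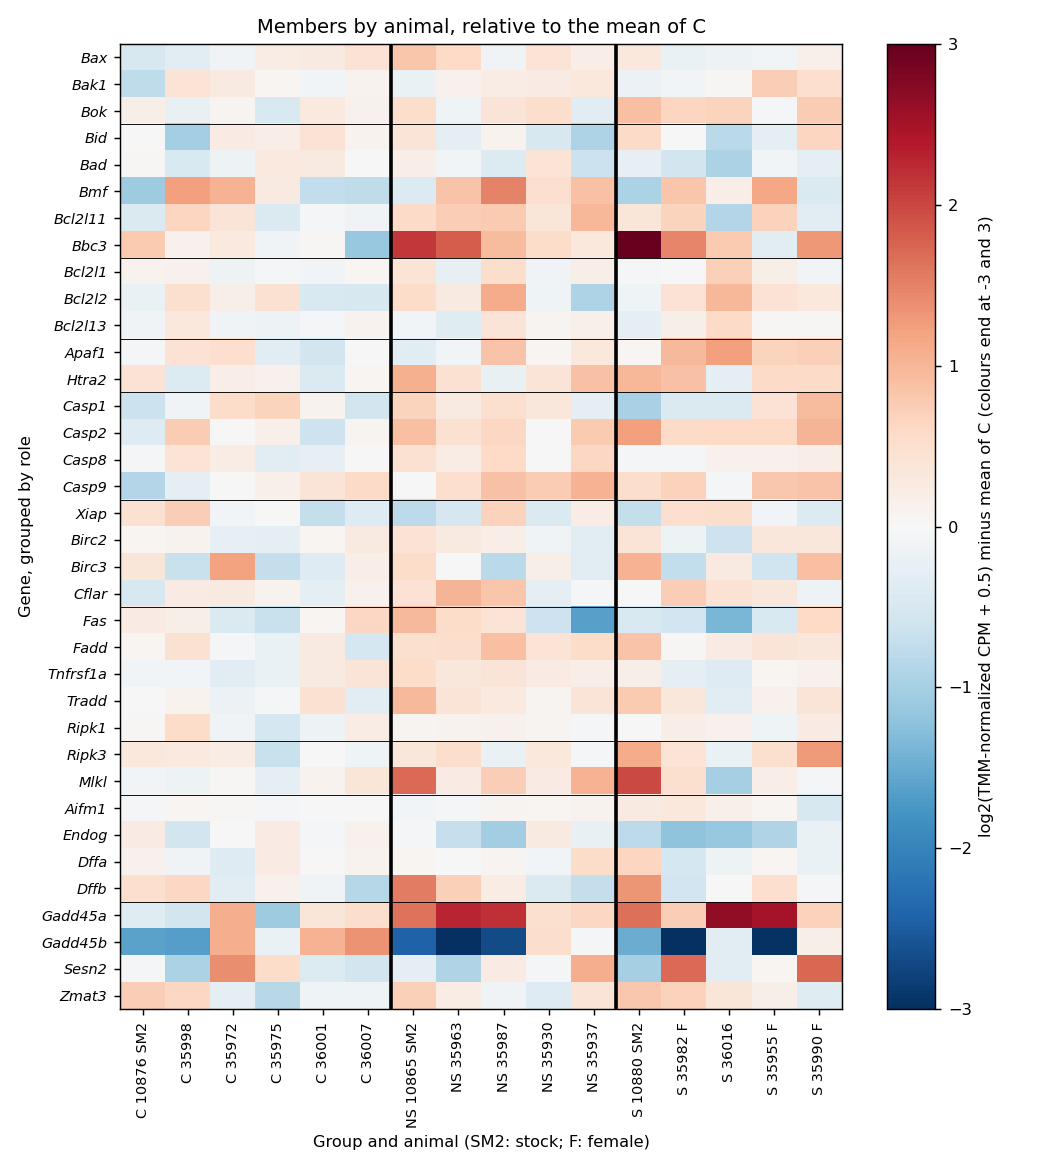
Log2 of TMM-normalized CPM plus 0.5 for the 36 members tested in each of the 16 animals minus the mean of C, with genes grouped by role and the colour scale ending at the values on its bar. Gadd45a is above the C mean in all HFD animals and Gadd45b varies most, from 6.67 to 196 CPM.

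The biological coefficient of variation, the square root of the fitted dispersion, gives the spread between animals within groups. It was 0.178 for Aifm1, the lowest of the members, 0.198 for Tnfrsf1a, 0.696 for Bbc3 and 0.846 for Gadd45b, the highest. The median was 0.347 for the 36 members and 0.321 for all genes tested. Of the called genes, Bbc3 and Gadd45a (0.546) were above the median of the members and Endog (0.28) was below it.

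The stocks were compared after seeing the data, with diet group in the fit. All 3 SM2 animals were male and the 3 females were BW, so stock and sex cannot be fully told apart. For the HFD effects of the stocks NS and S were pooled, which left 1 NS and 1 S animal of SM2 on HFD. In SM2 vs BW, 6 of 36 members were called, beside 21.8% of all genes, and 9 had an unadjusted p under 0.05, beside 29.1% of all genes. Bbc3 (log2 difference 1.73 ± 0.434 SE, adjusted p of 0.0132), Mlkl (1.14 ± 0.3 SE, 0.0168), Dffb (1.24 ± 0.342 SE, 0.021) and Htra2 (0.56 ± 0.214 SE, 0.0894) were higher in SM2, and Bmf (-1.55 ± 0.447 SE, 0.0265) and Bak1 (-0.69 ± 0.221 SE, 0.0448) were lower. These differences are taken over the 3 groups together. On chow the SM2 animal 10876 was within the BW range for Mlkl (11.4 CPM) and Dffb (4.43 CPM). It was the highest of C for Bbc3 and Htra2 and the lowest for Bmf and Bak1. For the difference between the HFD effects of the stocks, with 1 SM2 control whose spread is assumed to be that of the other groups, 0 members were called, beside 0.0712% of all genes. At an unadjusted p under 0.05 there were 3 members, Mlkl (1.65 ± 0.606 SE), Xiap (-1.38 ± 0.601 SE) and Bax (1.07 ± 0.413 SE), with adjusted p of 0.552, 0.606 and 0.583, beside 7.80% of all genes at that threshold.

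Coordination was described by Pc, on CPM by total count. A gene's Pearson's r with all other genes is taken within each of a pair of groups, and Pc is the correlation of these series of r between the groups. Each r rests on 5 or 6 animals, and genes share those animals, so no test was made. The median Pc of the 37 members was 0.121 in S vs C (jackknife standard error 0.127 over 11 animals), beside 0.105 for all genes. It was 0.151 in S vs NS (0.187 over 10 animals), beside 0.166, and 0.198 in NS vs C (0.167 over 11 animals), beside 0.154. The members thus differed from all genes by less than the standard error. The lowest and highest members were Casp2 (-0.344) and Zmat3 (0.328) for S against C, Bax (-0.177) and Casp8 (0.436) for NS against C, and Fadd (-0.311) and Dffb (0.515) for S against NS. Below 0 were 11, 9 and 7 members in that order, and 31.6%, 26.7% and 26.8% of all genes.

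Other genes of these pathways were followed as 5 lists with 136 genes tested. In NS vs C 0 of them passed an adjusted p under 0.1 in edgeR, with 11 at an unadjusted p under 0.05, beside 8.29% of all genes, and 3 called by DESeq2, beside 114 genes in all. S vs NS likewise had 0 in edgeR, 27 at an unadjusted p under 0.05, beside 10.9% of all genes, and 5 by DESeq2, beside 119 genes in all. Some edgeR alternatives did call list genes. In NS vs C 1 ferroptosis gene was called with stock in the fit, beside 0.411% of all genes, and 1 without 35930, beside 49 genes. In S vs NS 1 death ligand, TNF or lytic death gene was called with sex in the fit, beside 1.69%, and 1 dead cell uptake gene without 10880, beside 16 genes. In S vs C 10.8% of all genes were called, with a median log2 fold change of 0.10, which is the background for each list that follows. Of the other apoptosis genes 5 of 31 were called, 1 higher and 4 lower. Bnip3, a mitochondrial BH3-like gene, fell by 0.82 ± 0.199 SE on the log2 scale (adjusted p of 0.036), from 216 to 331 CPM in C to 108 to 177 in S, with no overlap. Bag1, a cochaperone that binds BCL-2, fell by 0.57 ± 0.138 SE (0.0369), and Tmbim6, an ER membrane protein also called BAX inhibitor 1, by 0.57 ± 0.153 SE (0.0492). Dapk1, a kinase that promotes cell death, rose by 1.46 ± 0.412 SE (0.0564), from 3.22 to 12.8 CPM in C to 14.6 to 27.3 in S, again without overlap. Without S animals 36016 and 35990 0 genes of this list were called. There were 3 in the male animals alone and without C animal 35975 or 36001, and 2 without C animal 36007. In those fits 2.56% of all genes were called without both S animals, 7.93% in the male animals, and 456, 567 and 446 genes without the C animals in that order.

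Among the other death ligand, TNF and lytic death genes, 2 of 34 were called in S vs C. Map3k5, the stress kinase ASK1, fell by 0.70 ± 0.195 SE (adjusted p of 0.0548), and Nfkb1, a subunit of NF-kB, rose by 0.40 ± 0.135 SE (0.0901). Neither call remained without C animal 36001 or without C animal 36007, when 0 genes of this list were called, nor without S animals 36016 and 35990. Library totals (18.1% of all genes called), no filter on low counts (1091 of 14659 genes) and a fit of only the groups compared (1063 of 12458) each gave 1 call. Leaving out 10880, 35963, 35982, 35987, 35972, 35975 or 35990 also left 1 call. In those fits 1355, 1063, 774, 1209, 969, 456 and 1295 genes were called in all, in that order.

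Of the other p53 target and DNA damage genes, 7 of 31 were called in S vs C, 6 higher and 1 lower, beside 10.8% of all genes. Their median log2 fold change was 0.34, beside 0.10 for all genes. Among the higher calls, Phlda3, a p53 target named here after its values were seen, had 20.6 CPM in 36016 and at most 3.17 in any other animal. Trp53bp1, a DNA break response gene, rose by 1.06 ± 0.186 SE (adjusted p of 0.0125), from 6.00 to 10.1 CPM in C to 11.5 to 20.5 in S. Tigar, a p53 target that limits glycolysis, fell by 0.97 ± 0.187 SE (0.0163), from 8.1 to 10.5 CPM to 3.53 to 6.38. Plk2, a p53-responsive kinase, rose by 0.88 ± 0.174 SE (0.02), and Atr, a kinase of the replication stress response, by 0.73 ± 0.186 SE (0.0421). The ranges of C and S did not overlap for Trp53bp1 and Tigar, and those of Plk2 and Atr overlapped. With sex in the fit 4 genes of this list were called, beside 1232 of 12639 genes in all (9.75%), and in the male animals alone 3, beside 990 of 12492 (7.93%). Without S animals 36016 and 35990 there were 4, beside 2.56% of all genes, and without C animal 35975 4, beside 456 genes in all.

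The dead cell uptake genes serve the clearance of dying cells by phagocytes, and 5 of 24 were called in S vs C, all higher, beside 10.8% of all genes. Megf10 is among the 5 although it passed the filter on low counts only through S, so its call adds no support to that count. The other genes called were Axl, Cd36, Gulp1 and Tyro3. Cd36, a receptor for dying cells and a fatty acid transporter, rose by 1.18 ± 0.267 SE (adjusted p of 0.0294), from 33.5 to 89.8 CPM in C to 104 to 202 in S. Tyro3, a receptor kinase for bridged phosphatidylserine, rose by 1.96 ± 0.456 SE (0.0325), from 0.394 to 1.11 CPM to 1.22 to 5.07. Gulp1, an engulfment adaptor, had 1 to 4 counts in the C animals and 9 to 27 in S (log2 fold change 3.04 ± 0.563 SE, 0.0152). It had at most 0.416 CPM in C and passed the filter only through animals on HFD. Its call and its lack of overlap therefore add no support. Megf10, an engulfment receptor, had 0 counts in all 6 C animals and 0, 4, 0, 13 and 4 counts in S animals 10880, 35982, 36016, 35955 and 35990, too few for a fold. The S animals with Megf10 counts were the 3 females. For Cd36, Tyro3 and Gulp1 the values of C and S did not overlap. With sex in the fit 2 genes of this list were called, beside 9.75% of all genes, and in the male animals alone 1, beside 7.93%; all 3 females are in S. Without S animals 36016 and 35990 there were 2, beside 2.56% of all genes, and with library totals 8, beside 18.1%. Without C animal 35975, 36001 or 36007 there were 3, beside 456, 567 and 446 genes in all. In NS vs C the log2 fold change of Cd36 was -0.24 ± 0.268 SE (adjusted p of 0.857). Tyro3 had 0.76 ± 0.461 SE (0.691) and Gulp1 1.32 ± 0.574 SE (0.594). In S vs NS Cd36 had 1.42 ± 0.284 SE (0.211), with no overlap between S and NS. Tyro3 had 1.2 ± 0.465 SE there (0.391) and Gulp1 1.72 ± 0.554 SE (0.313), both with overlap, and none passed.

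Ferroptosis, a death by lipid peroxidation, gave 4 of 16 genes called in S vs C, 2 higher and 2 lower, beside 10.8% of all genes. Gpx4, the peroxidase that reduces lipid peroxides, fell by 0.85 ± 0.187 SE (adjusted p of 0.0276), from 385 to 687 CPM in C to 246 to 415 in S. Lpcat3, which places polyunsaturated fatty acids into phospholipids, rose by 0.92 ± 0.167 SE (0.0144), from 53.8 to 91.7 CPM to 115 to 175. Cisd1, an iron-sulphur protein of the outer mitochondrial membrane, fell by 0.72 ± 0.2 SE (0.0534), and Nfe2l2, which encodes NRF2, rose by 0.56 ± 0.162 SE (0.059). Leaving out C animal 35975, 36001 or 36007, or S animals 36016 and 35990 together, gave 2 ferroptosis genes, beside 456, 567 and 446 genes in all and 2.56% of all genes in that order. In NS vs C Lpcat3 had a log2 fold change of 0.77 ± 0.167 SE (adjusted p of 0.146). Its NS values, 93.2 to 144 CPM, lay above every C animal. Nfe2l2 had 0.44 ± 0.162 SE (0.513), Gpx4 -0.36 ± 0.185 SE (0.63) and Cisd1 -0.21 ± 0.198 SE (0.823). In S vs NS Lpcat3 had 0.15 (0.78) and Nfe2l2 0.12 (0.818). Gpx4 had -0.48 there (0.399) and Cisd1 -0.51 (0.405), and none passed.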

How the data were processed

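Liver RNA counts of 16 animals were analysed. Paired-end reads came from a directional library kit. With STAR 2.7.2 the authors aligned them against assembly HU_Pman_2.1 (version from the submitters' processing notes), and deposited raw counts per gene symbol, made with featureCounts (Subread) from uniquely mapping reads. The strand setting and the conversion to symbols are not given in the sources used here, so overlapping, antisense and closely paralogous genes are uncertain. All animals entered 1 fit in edgeR 4.0.16 (R 4.3.3, limma 3.58.1; quasi-likelihood test, TMM), on genes reaching 0.5 CPM in 1 animal or more, with Benjamini-Hochberg adjustment over all genes. Calls were made at adjusted p under 0.1. SE is the log2 fold change over the root of F. Pc was computed in Python 3.11.15 with numpy 2.4.6. Both steps were tested on simulated data. The members and lists, cell type markers included, were chosen with earlier results of these data known. Values are given for the called members and, by smallest unadjusted p, 15 members in all, and for up to 4 called genes of each other pathway list, by smallest p; values of other members were chosen after they were seen. DESeq2 1.42.0, other scalings, filters, covariates and subsets of animals were alternatives. Animals of a group were compared pairwise, and all pairs differed beyond sampling noise. That noise leaves out differences between separate animals, so the comparison shows only that no library was a copy of another.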

Additional observations from a re-analysis of the deposited data

Results flagged for a closer look

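Levels of the 36 members tested were examined in each group for an animal far from the others. Of these 108 groups, 7 had such an animal. Chance alone gives about 1 in 20 groups, and 7 of 108 is near that rate. All members were measured in the same 16 animals, so the groups are not independent. In S, the SM2 animal 10880 was far above the others for Bbc3 (14.6 CPM, next highest 3.89) and for Mlkl (49.2 CPM, next highest 17.2), and 36016 for Bcl2l1 (32.5 CPM, next highest 22.3). In NS, 35987 was far above the others for Fadd (4.44 CPM, next highest 3.39), the SM2 animal 10865 for Tradd (21.6 CPM, next highest 14.2) and 35937 for Dffa (26 CPM, next highest 18.7), and 35937 was far below them for Ripk1 (9.63 CPM, next lowest 10.7). Of 30 groups of summed cell type markers, 1 had such an animal, 36016 in S, with 3470 CPM for the stellate cell and fibroblast markers and 509 CPM in the next highest animal.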

How the results depend on the processing

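In S vs C the number of members called was 3, and it moved to 7 with library totals (18.1% of all genes), 6 with stock as a covariate (15.9%), 5 with DESeq2 (14.3%), 1 at an adjusted p under 0.05 (457 genes in all) and 1 without S animals 36016 and 35990 (2.56%). The 6 and 5 of 36 lie near the share of all genes in their fits. With a fold of at least 2 it was 2, and it moved to 4 with library totals (927 genes in all), 1 in the BW animals alone (610), 1 in a fit of only the groups compared (394), 1 at an adjusted p under 0.05 (209) and 0 without those S animals (191). Leaving out single animals, the numbers ranged from 0 to 4 and, with the fold, from 0 to 3, both lowest without C animal 35975. Gadd45a lost its call without 36016 or 35975, Endog without 35982, 36016, 35975 or 36007, and Bbc3 without 10880, 35982, 35972, 35975, 36001 or 36007. Bbc3 also lost it in the BW animals alone and in a fit of only the groups compared, and Endog with library totals. The median log2 fold change of the members in S vs C moved from 0.22 to 0.44 with library totals. In the BW animals alone it was 0.14, beside 0.10 for all genes, and leaving out single animals it ranged from 0.17 to 0.32. The cause of these shifts was not tested, except that a stricter limit by construction gives no more calls. In NS vs C and S vs NS the number stayed at 0 in all 28 alternatives. The median log2 fold change of the members in NS vs C was 0.26, and 0.16 in the BW animals alone. In S vs NS it was -0.00, and 0.12 with library totals, beside 0.17 for all genes on that scale. Leaving out single animals, it ranged from 0.17 (without 35975) to 0.37 (without 35937) in NS vs C and from -0.06 to 0.03 in S vs NS. The median Pc then ranged from 0.0384 (without 10876) to 0.158 for S and C, where it was 0.121, from 0.0887 (without 10876) to 0.249 for NS and C, where it was 0.198, and from 0.0392 (without 10880) to 0.252 for S and NS, where it was 0.151. With counts as deposited it was 0.203 for S and C and 0.099 for NS and C, which turned their order, and in the BW animals alone 0.0537 for S and C and 0.035 for S and NS. On the log2 scale it was 0.24 for S and NS. Each Pc shift was less than the jackknife standard error. That error is computed from the same leave-one-out medians, so the comparison does not show stability. No direction of a named member with an unadjusted p under 0.05 turned. No paired analysis was possible because replicate numbers do not pair animals across groups. With 4640733 to 11349971 counts per animal, Bcl2, Ripk3, Bcl2l2, Bcl2l11 and Bbc3 had 0 to 2 counts in their lowest animals. Differences of moderate size may be missed at such counts, but the size that could be detected was not measured.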

Other observations

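Cell type markers were followed in the same fits. In S vs C 12 of 73 were called by edgeR and 11 by DESeq2, beside 10.8% and 14.3% of all genes. In that comparison 2 of 5 neutrophil and monocyte markers tested were called, both lower, while the other 3 were higher without passing and the median log2 fold change of the 5 was 0.26. S100a8 fell by 1.98 ± 0.518 SE on the log2 scale (adjusted p of 0.0452 in edgeR), from 8.76 to 30.8 CPM in C to 1.83 to 6.10 in S, and S100a9 by 1.77 ± 0.48 SE (0.0497), from 15.8 to 42.9 CPM to 2.35 to 13.1. Of 7 hepatocyte markers tested, Apoa1 rose by 0.96 ± 0.275 SE (0.0575), while Apoa2 fell by 1.02 ± 0.237 SE (0.0325) and Ttr by 0.66 ± 0.208 SE (0.0772). Of 10 stellate cell and fibroblast markers, 3 were called by edgeR and 1 by DESeq2. Dcn fell by 1.05 ± 0.249 SE (0.0354), and Col1a1 and Col1a2 were called higher, with 2060 and 1060 CPM in 36016 and at most 17.0 and 47.0 CPM in the others. Top2a, Cdk1 and Ccna2 were the cycling markers called, of 8 tested, highest in 36016 or 35990. Cd79b was the B and plasma cell marker called, of 8 tested. It had at most 0.469 CPM in C and passed the filter only through animals on HFD, so its call adds no support. The macrophage (10 tested), T and NK cell (9), sinusoidal endothelial (7), bile duct (7) and blood erythroid (2) lists gave 0 calls. These lists had 1 marker at an unadjusted p under 0.05, a sinusoidal endothelial one, beside 23.8% of all genes, and 0 called by DESeq2, beside 14.3%. In NS vs C 0 of 73 markers were called by edgeR, 7 had an unadjusted p under 0.05, beside 8.29% of all genes, and DESeq2 called 1. The S vs NS numbers were 0, 17, beside 10.9% of all genes, and 3. Of these 17, 7 were cycling markers, of 8 tested. The cycling markers summed to 59.1 CPM in 36016 and 38.6 in 35990. They summed to 5.56 to 7.93 CPM in the other S animals and to 2.52 to 6.55 in NS.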
